A study of Mus musculus with 6 samples.

Results

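A set of 10 genes known for their expression in fat cells, Adipoq, Lep, Retn, Cfd, Plin1, Cidec, Plin4, Lpl, Fabp4 and Pparg, were followed tumor by tumor in RNA-seq of mouse colon tumors, as a check of fat tissue carried over with the dissected tumors. They were chosen by name from the 54532 genes of the expression table, and all 10 were found. The tumors came from 3 Tmem173fl/fl AOM+DSS-L mice and 3 Tmem173iΔmye AOM+DSS-L mice, labelled WT and CRE by the submitters. AOM, a carcinogen, and 3 cycles of DSS, which injures the colon lining, induced tumors in both groups. TAM was then injected 5 times at 120 mg/kg, and the mice were killed 1 week later. Both groups carried loxP sites around Tmem173, the gene encoding STING, and both received TAM. Only Tmem173iΔmye mice also carried Lyz2-Creert2, a TAM-inducible Cre driven by a promoter of myeloid cells. The age of these mice is not stated in the sources used here, and nothing there says whether a library held 1 tumor or several.

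White adipocytes store triglyceride in a single large droplet and release hormones into the blood. Lipoprotein lipase on nearby capillaries frees fatty acids from circulating lipoproteins, FABP4 carries fatty acids inside the cell, and perilipins and CIDEC coat and enlarge the droplet. PPAR-γ and C/EBPα switch on this program. The colon wall is attached to mesenteric fat on its outer side, and adipocytes also occur in its submucosa. Some members are almost restricted to adipocytes, as Adipoq, Lep and Plin1 are, whereas Pparg is also known in colon epithelium and macrophages, Lpl in macrophages and muscle, and Fabp4 in capillary endothelium and macrophages.

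The most restricted genes were at or near 0 in every tumor, while Pparg, Lpl, Fabp4, Cidec and Plin4 were detected in all 6. No member passed the test between the groups. The counts of a tumor summed to 15329810 to 16533732. Only 4 members, Pparg, Lpl, Fabp4 and Cidec, reached the mean FPKM of 0.5 (reads scaled by gene length and sequencing depth, as deposited) required for testing. After Benjamini-Hochberg adjustment of edgeR's quasi-likelihood p-values, 0 of these 4 were called at an adjusted p under 0.05, as were 0% of the 16426 genes tested. By the same tool, 0 of the 4 and 1008 of all genes tested had an unadjusted p under 0.05. DESeq2, run as an alternative, called 28 genes of the table at an adjusted p under 0.05 and 0 members. At the study's threshold (a log2 fold change of 1 or more in either direction with an unadjusted p of at most 0.05), 0 members were called, beside 1.26% of all genes tested as higher and 0.864% as lower in Tmem173iΔmye tumors. The FPKM values of the groups overlapped in all 4 tested members, whereas 6.14% of all genes tested had every Tmem173iΔmye tumor above every Tmem173fl/fl tumor and 6.31% had every one below. The median log2 fold change of the 4 members was 0.15, and that of all genes tested was -0.0042. The targeted gene itself, Tmem173, was measured at 48.6, 84.5 and 44.2 FPKM among Tmem173fl/fl tumors and at 62.7, 61.0 and 53.7 FPKM among Tmem173iΔmye tumors, values being given in the order of replicates 1, 2 and 3 here and throughout. Its level in whole tumor RNA therefore did not separate the genotypes. Y-linked reads were present in Tmem173fl/fl replicate 1 and in Tmem173iΔmye replicates 1 and 2, and the remaining 3 tumors held at most 2 such reads apiece. The sexes were thus unevenly spread over the groups. In bulk tissue, fewer cells of a type and less RNA per cell cannot be told apart.

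**Figure D1:**
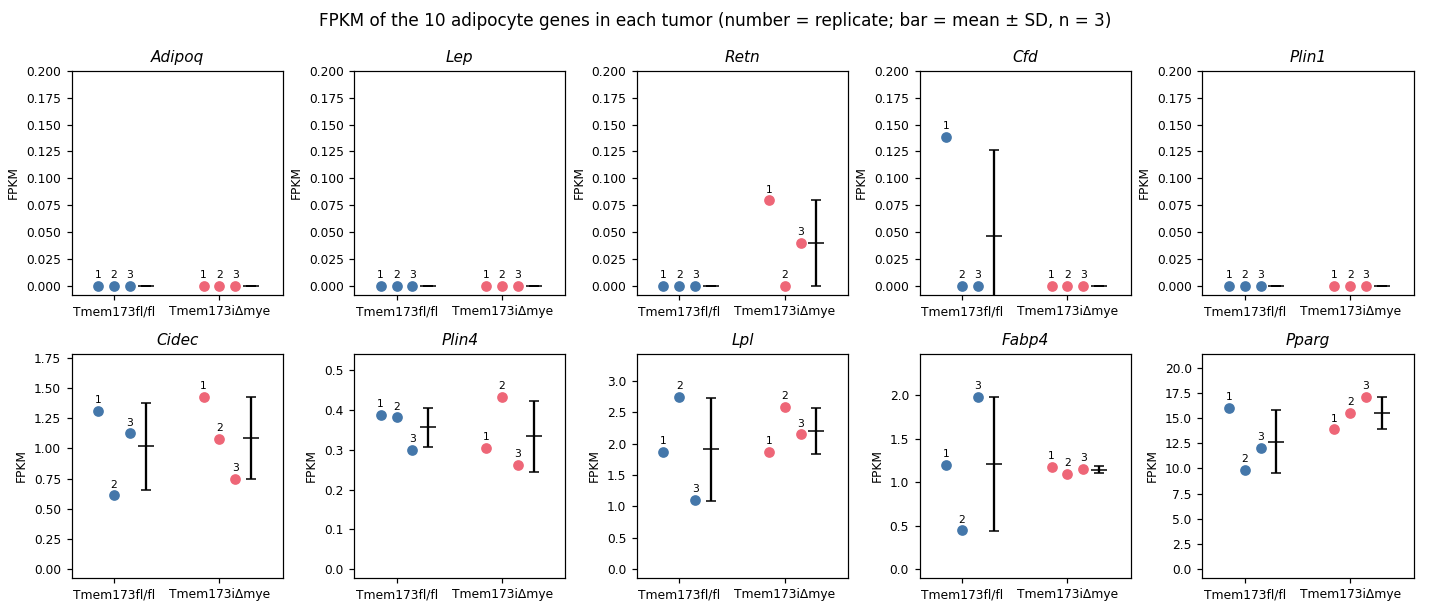
FPKM (y axis, each panel with its own scale starting at 0) of each of the 10 adipocyte genes in the 3 Tmem173fl/fl (blue) and 3 Tmem173iΔmye (red) tumors. Points are tumors numbered by replicate and black bars are the group mean ± SD (n = 3). Adipoq, Lep and Plin1 lie at 0 in all 6 tumors, Retn and Cfd never exceed 2 counts, and the groups overlap in each of the other 5 genes.

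Among the secreted products, adiponectin and leptin were not detected. Adipoq, which encodes adiponectin, the hormone that adipocytes release most abundantly, lies at chr16:23146536-23158028 on the plus strand (GRCm38) and had 0 counts in each of the 6 tumors. Lep, which encodes the satiety hormone leptin (chr6:29060220-29073877, plus strand), likewise had 0 counts in each. For a count of 0, a limit of 3 counts per tumor was set, somewhat under the 3.69 that the exact Poisson 95% interval of 0 reaches. A limit of 3 counts corresponds to 0.130 to 0.145 FPKM for Adipoq and to 0.0533 to 0.0598 FPKM for Lep. These limits cover counting error alone. Set against the same tumors' epithelium, the FPKM of Epcam, an adhesion protein of epithelial cells, was at least 5425-fold higher than this limit for Adipoq in every tumor, and at least 13175-fold higher than that for Lep.

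Traces of the other secreted products were found, each in a few reads. Retn, which encodes resistin (chr8:3655770-3660110, plus strand), had 0 counts in all 3 Tmem173fl/fl tumors, whereas 2, 0 and 1 were counted among Tmem173iΔmye tumors. Cfd, which encodes adipsin, the protease complement factor D (chr10:79890853-79892655, plus strand), had 2 counts in Tmem173fl/fl replicate 1 and 0 in the other 5 tumors. No fold change is given for either, because both groups lay at or under 3 counts per tumor.

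Plin1, which encodes perilipin 1, the main gatekeeper of lipolysis on the adipocyte droplet, lies at chr7:79720218-79732903 on the minus strand and had 0 counts in all 6 tumors. Its limit of 3 counts corresponds to 0.0385 to 0.0431 FPKM, so that Epcam was at least 18263-fold higher than this limit in every tumor. Adipoq, Lep, Retn, Cfd and Plin1 together had 5 counts among the 94802332 counts of all genes and tumors. A count of 0 in every tumor was common in this table, being found for 3980 of 22046 protein-coding genes (18.1%).

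These zeros were checked against the annotation, since overlapping or repeated sequence can remove reads from a gene. No exon base of Adipoq, Lep, Retn, Cfd or Plin1 overlapped an exon of another gene in GENCODE M21, and the gene length in the table equalled the length of the merged exons for all 10 members. Of all 50-base stretches in their transcripts, 0 occurred in transcripts of other genes for Adipoq, Lep, Retn and Cfd, and 9 of 4646 (0.194%) did for Plin1. Only exact matches in annotated transcripts were searched.

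To show the control regions from which such restricted and broader expression starts, the bases upstream of annotated starts were taken from RefSeq (GRCm38.p6), which held windows for 8 of the 10 members, 11 windows in all. C/EBP proteins, the partners of PPAR-γ in adipocytes, bind sites that resemble TTGCNNAA. On either strand, 4 of the 11 windows of 250 bases before the start held this motif, beside 9.56% of 32851 promoters in the same table. Other motifs were scanned in the same way. The PPAR half-site AGGTCA was in 2 of the 11 windows, beside 14% of promoters, and the TATA box TATAAA in 1, beside 12.4%. No enrichment was tested. The windows below run 5′ to 3′ on the strand of the gene, end at the base before the start and are cut short where an annotated exon intrudes. Capitals mark the matches to the C/EBP motif.
Adipoq, chr16:23146286-23146535, plus strand: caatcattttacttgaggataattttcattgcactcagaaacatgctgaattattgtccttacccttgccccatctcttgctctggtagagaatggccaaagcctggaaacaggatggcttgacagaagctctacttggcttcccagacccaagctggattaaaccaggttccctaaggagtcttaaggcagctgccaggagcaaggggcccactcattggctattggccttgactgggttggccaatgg
Lep, chr6:29059971-29060219, plus strand: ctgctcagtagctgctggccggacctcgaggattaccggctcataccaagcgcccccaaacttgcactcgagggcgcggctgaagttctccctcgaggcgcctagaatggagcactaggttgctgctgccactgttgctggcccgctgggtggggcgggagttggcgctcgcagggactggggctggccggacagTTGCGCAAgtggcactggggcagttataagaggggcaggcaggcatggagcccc
Plin1, chr7:79732904-79733026, minus strand: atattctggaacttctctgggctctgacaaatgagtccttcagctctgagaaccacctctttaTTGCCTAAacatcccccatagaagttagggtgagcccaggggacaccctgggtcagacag
Pparg, first start, chr6:115360894-115360950, plus strand: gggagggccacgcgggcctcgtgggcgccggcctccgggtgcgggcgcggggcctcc
Pparg, downstream start, chr6:115421816-115422065, plus strand: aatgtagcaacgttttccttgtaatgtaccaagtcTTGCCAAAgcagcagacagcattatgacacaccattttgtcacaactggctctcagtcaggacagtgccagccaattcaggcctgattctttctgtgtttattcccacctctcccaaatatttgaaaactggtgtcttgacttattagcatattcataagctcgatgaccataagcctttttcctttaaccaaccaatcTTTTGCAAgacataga
The downstream Pparg start is that of the adipocyte form of the transcript. Its window held 2 C/EBP matches and a GC content of 40.8%. That of the first, broadly used start held 0 C/EBP matches in its 250 bases and a GC content of 82.4%. Upstream of the undetected Lep and Plin1, the printed bases held 1 C/EBP match each, and those of the undetected Adipoq held 0. A match describes letters only and was not tested as a binding site. Counts per gene cannot assign the Pparg reads to one start or the other.

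Pparg, the nuclear receptor that drives fat cell differentiation (chr6:115360951-115490399, plus strand), was the most abundant member. Its FPKM was 16.0, 9.89 and 12.0 among Tmem173fl/fl and 13.9, 15.5 and 17.1 among Tmem173iΔmye tumors. Tmem173fl/fl replicate 1 lay above 2 of the Tmem173iΔmye tumors, and replicates 2 and 3 lay below all of them. The means were 12.6 ± 3.1 (SD, n = 3) and 15.5 ± 1.6 FPKM (SD, n = 3). The log2 fold change of Tmem173iΔmye over Tmem173fl/fl was 0.29 (SE 0.20, 95% interval -0.18 to 0.76), and its Benjamini-Hochberg adjusted p was 0.757 by the quasi-likelihood test of edgeR. Pparg took 46.1% to 62.2% of the counts of the 10 members in a tumor.

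Lpl, which encodes lipoprotein lipase (chr8:68880491-68907448, plus strand), had FPKM values of 1.87, 2.74 and 1.11 in the Tmem173fl/fl tumors and 1.87, 2.59 and 2.15 in the Tmem173iΔmye tumors. Both its lowest and its highest value belonged to Tmem173fl/fl tumors, so the groups overlapped. Averages of 1.91 ± 0.82 (SD, n = 3) and 2.20 ± 0.36 FPKM (SD, n = 3) gave a log2 fold change of 0.21 (SE 0.31, 95% interval -0.52 to 0.94, Benjamini-Hochberg adjusted p = 0.876, edgeR quasi-likelihood). Without Tmem173fl/fl replicate 3, the lowest tumor, the log2 fold change was -0.06. Between 19.4% and 45.4% of the members' counts fell on Lpl, the second largest share.

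Fabp4, the adipocyte fatty acid binding protein (chr3:10204088-10208576, minus strand), was measured at 1.20, 0.447 and 1.98 FPKM in the Tmem173fl/fl tumors and at 1.18, 1.10 and 1.16 FPKM in the Tmem173iΔmye tumors. The Tmem173fl/fl tumors thus spread on both sides of the Tmem173iΔmye tumors, which lay close together. The coefficient of variation was 63.4% among the former and 3.52% among the latter, and whether these spreads differ was not tested. Group means were 1.21 ± 0.77 (SD, n = 3) and 1.15 ± 0.04 FPKM (SD, n = 3). The log2 fold change, -0.08 (SE 0.48, 95% interval -1.20 to 1.03, Benjamini-Hochberg adjusted p = 0.971, edgeR quasi-likelihood), took its sign from 1 tumor or the other. It was 0.47 without Tmem173fl/fl replicate 3 and -0.48 without replicate 2.

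Cidec, which encodes a protein that fuses small lipid droplets into large ones (chr6:113424634-113435760, minus strand), was counted 38, 17 and 35 times among Tmem173fl/fl and 42, 32 and 22 times among Tmem173iΔmye tumors. These correspond to FPKM values of 1.31, 0.612 and 1.12 and of 1.42, 1.08 and 0.750. High and low tumors occurred in both groups. The mean FPKM was 1.02 ± 0.36 (SD, n = 3) and 1.08 ± 0.34 (SD, n = 3), giving a log2 fold change of 0.09 (SE 0.42, 95% interval -0.89 to 1.07, Benjamini-Hochberg adjusted p = 0.965, edgeR quasi-likelihood). Leaving out Tmem173fl/fl replicate 2 or Tmem173iΔmye replicate 1 turned it to -0.17 or -0.16.

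Plin4, a perilipin of adipocytes and muscle that coats small droplets (chr17:56100591-56109803, minus strand), stayed under the filter. Its counts were 35, 33 and 29 in the Tmem173fl/fl and 28, 40 and 24 in the Tmem173iΔmye tumors, or 0.388, 0.382 and 0.299 and 0.305, 0.433 and 0.263 FPKM. The lowest count, 24, has an exact Poisson 95% interval of 15.4 to 35.7 and the highest, 40, one of 28.6 to 54.5. These intervals cover counting error alone, and the tumors were not tested against each other. Fitted without the filter, its log2 fold change was -0.08 (SE 0.41, Benjamini-Hochberg adjusted p = 0.968, edgeR quasi-likelihood).

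The order of the detected members by level depended on gene length. Pparg exceeded each of the other members in 6 of 6 tumors per kilobase. Plin4 was the lowest of the 5 in 6 of 6. In between, Lpl was above Fabp4 in 5 of 6 tumors and Fabp4 above Cidec in 3 of 6, so Fabp4 and Cidec were not ordered. The length used for Fabp4, 4489 bases, is that of the whole gene, because an annotated transcript retains its introns, while its coding transcript measures 896 bases, a factor of 5.01. For Lpl the lengths are 10478 and 4115 bases, a factor of 2.55. Scaled by the longest coding transcript instead, Fabp4 reached 5.89 ± 2.44 (SD, n = 6) and Lpl 5.23 ± 1.50 (SD, n = 6) on the FPKM scale, and Lpl was above Fabp4 in 2 of 6 tumors. On the same scale Fabp4 was above Cidec, at 1.13 ± 0.34 (SD, n = 6), in 6 of 6. Comparisons of one gene between tumors do not depend on this choice.

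The detected members ranked the tumors differently. Over all 6 tumors, the highest FPKM exceeded the lowest by 4.43-fold for Fabp4, 2.47-fold for Lpl, 2.33-fold for Cidec, 1.73-fold for Pparg and 1.65-fold for Plin4. Tmem173fl/fl replicate 2 was the lowest tumor for Pparg, Cidec and Fabp4 but the highest for Lpl. Tmem173fl/fl replicate 3 was the lowest for Lpl and the highest for Fabp4. That tumor was also the highest for 4 of 8 muscularis genes and the lowest for 0. Tmem173fl/fl replicate 2 was also the lowest tumor for 5 of 9 endothelial genes and the highest for 1 (Tek), the lowest for 5 of 9 macrophage genes and the highest for 1, and the lowest for 7 of 10 colon epithelial genes and the highest for 1 (Cdh1). Among them, the capillary gene Gpihbp1 was at 0.366 FPKM against 0.818 to 1.18 in the other tumors. The widest gaps were in genes of mature colonocytes, with Slc26a3, a chloride exchanger, at 0.420 FPKM against 3.30 to 18.7 and Aqp8, a water channel, at 1.40 FPKM against 10.9 to 62.5. The part of these differences in the members' values was not tested. How often each tumor was the lowest or highest over all genes tested was not counted, so these list counts have no background beside them. Without Tmem173fl/fl replicate 2, the members' median log2 fold change was -0.02 in place of 0.15.

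**Figure D2:**
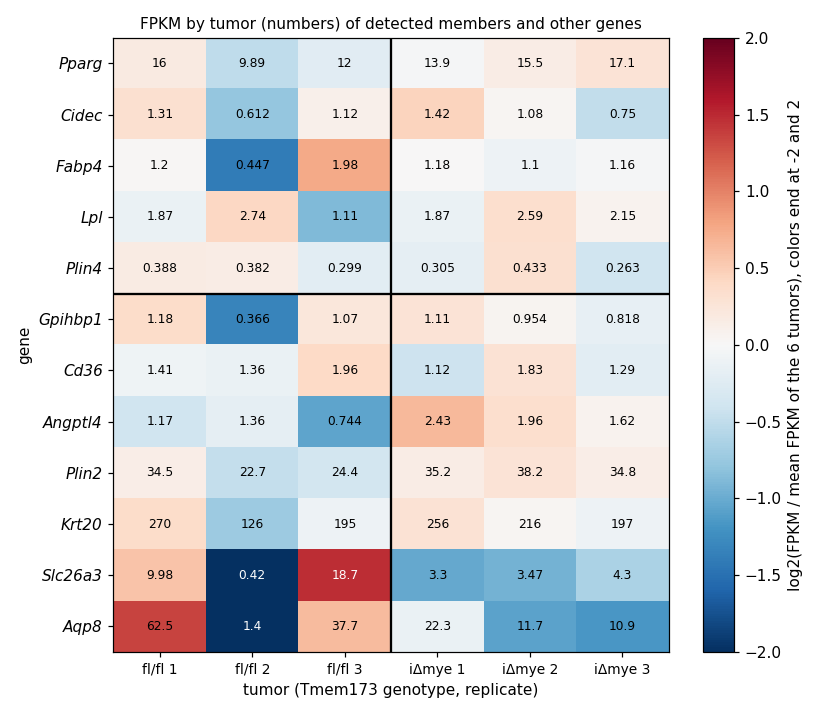
FPKM (numbers) of the 5 detected adipocyte genes (above the line) and of 7 other genes (below it) in each tumor, with columns named by Tmem173 genotype and replicate. Colors give log2 of the ratio to the gene's mean over the 6 tumors, red for higher and blue for lower, ending at -2 and 2. Tmem173fl/fl replicate 2 is the lowest column for Pparg, Cidec and Fabp4, and also for Gpihbp1, Plin2, Krt20, Slc26a3 and Aqp8. It is not the lowest for Lpl, Plin4, Cd36 or Angptl4.

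Other genes of white adipocytes covered a wide range of levels. Of 25 listed, 18 passed the filter. Tshr, the thyrotropin receptor, had 0 counts in all tumors, and Adrb3, the β3-adrenergic receptor of adipocytes, did not exceed 0.0938 FPKM. Aqp7, the glycerol channel of adipocytes, did not exceed 0.177 FPKM. Other genes known mainly from adipocytes were detected in every tumor, Adig, an adipocyte membrane protein, with 2 to 11 counts and Lgals12, a galectin of lipid droplets, at 6.11 to 8.22 FPKM. At the upper end stood genes of lipid synthesis and turnover that many epithelia use. Fasn, fatty acid synthase, had a mean of 62.9 FPKM over the 6 tumors and Pnpla2, the lipase that starts triglyceride breakdown, 49.6 FPKM. Hormone-sensitive lipase, encoded by Lipe, was at 1.50 to 1.80 FPKM. Of the 24 listed genes above 3 counts in a tumor, Tmem173fl/fl replicate 3 was the highest tumor for 7 and the lowest for 4. Replicate 2 was likewise the highest for 7 and the lowest for 4. Replicate 3 was the highest for Ces1d, at 2.92 FPKM against 0.270 to 1.35 elsewhere, and for Car3 and Pck1, but the lowest for Lgals12. Whether attached fat had a part in this was not tested. None of the 18 was called at an adjusted p under 0.05 or at the study's threshold, and 0 were higher and 2, Lipe and Slc2a4, lower in every Tmem173iΔmye tumor. Of all genes tested, 6.14% were higher and 6.31% lower in this way. The log2 fold change of Lipe was -0.098 (SE 0.18). Slc2a4, the insulin-responsive glucose transporter, had FPKM values of 1.29, 1.48 and 1.39 in the Tmem173fl/fl and 0.869, 0.773 and 1.11 in the Tmem173iΔmye tumors, and its log2 fold change was -0.60 (SE 0.27, Benjamini-Hochberg adjusted p = 0.742, edgeR quasi-likelihood). Dgat2, which makes triglyceride, and Mgll, which completes its breakdown, had log2 fold changes of 0.23 and -0.43. The median of the 18 was -0.13.

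Brown adipocyte genes were undetected in part. Ucp1, the uncoupling protein that defines brown fat, had 2 counts in all tumors together, and Elovl3 and Zic1 had 0. Dio2, which activates thyroid hormone, was at 0.430 to 6.03 FPKM, highest in Tmem173iΔmye replicate 1, with a log2 fold change of 1.17 (SE 0.82), and Cidea had 7 to 15 counts per tumor. Of 9 listed genes 5 were tested, with 0 calls by either rule, 0 without overlap and a median log2 fold change of 0.92. Prdm16, a regulator of brown fat that other tissues also use, was estimated at a log2 fold change of 0.98 (SE 0.38), and Ppargc1a, a coactivator of mitochondrial genes, at -0.69 (SE 0.29). By edgeR's quasi-likelihood test, both had a Benjamini-Hochberg adjusted p of 0.742. Cox7a1, a subunit of cytochrome c oxidase found in muscle and brown fat, had a log2 fold change of 0.92 (SE 0.58), which was also the median of the list. Leaving out 1 tumor moved it between 0.56 without Tmem173iΔmye replicate 1 and 1.89 without Tmem173fl/fl replicate 1.

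**Figure D3:**
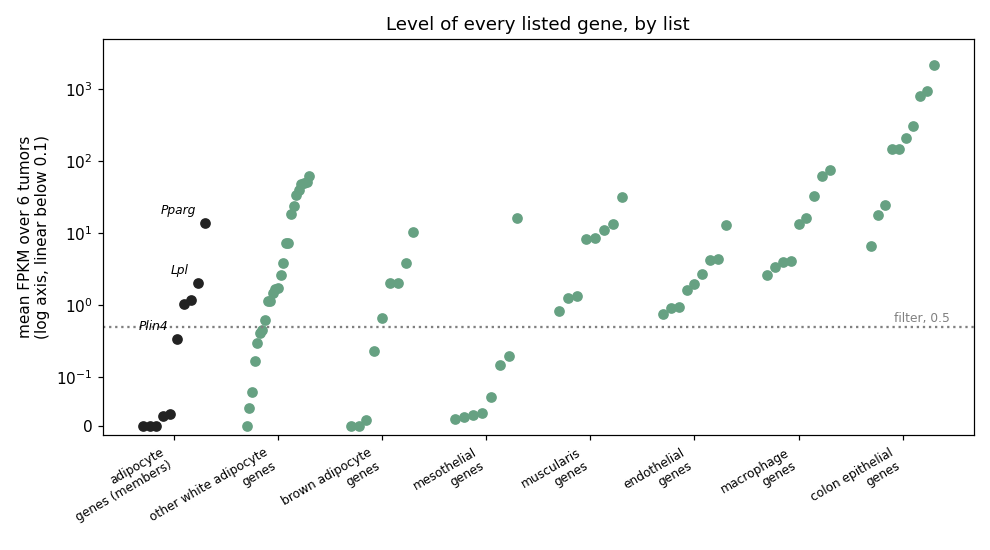
Mean FPKM over the 6 tumors (y axis, logarithmic above 0.1 and linear below) of every gene of 8 lists, 1 point per gene ordered by level within its list. The dotted line is the filter of 0.5 FPKM. Of the 10 adipocyte members (black), 5 lie near 0, Plin4 below the line and 4 above it, while all 10 colon epithelial genes lie above it.

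Tissue that could accompany fat was measured in the same way. Of 8 mesothelial genes, which mark the outer lining of the gut, Msln, also known from carcinomas, alone passed the filter, at 15.1, 12.0 and 35.8 FPKM in the Tmem173fl/fl and 9.80, 15.4 and 10.1 FPKM in the Tmem173iΔmye tumors (log2 fold change -0.84, SE 0.41). Without Tmem173fl/fl replicate 3, the highest tumor, the log2 fold change was -0.20. The defining transcription factor Wt1 did not exceed 0.0404 FPKM. Upk1b was at 0.0320 to 0.685 FPKM, highest in Tmem173fl/fl replicate 3 with 24 counts. The summed level of the 8 was 26.3 to 78.4 CPM in the Tmem173fl/fl and 21.8 to 34.1 CPM in the Tmem173iΔmye tumors. The highest sum was that of Tmem173fl/fl replicate 3. Most of each sum came from Msln, with 329 to 1270 counts per tumor, so it is mainly a level of that gene. All 8 muscularis genes passed the filter, with sums of 260 to 351 CPM and 151 to 311 CPM and a median log2 fold change of -0.57. Among them, Des, the muscle filament desmin, was past the study's threshold as lower (-1.01, SE 0.39, Benjamini-Hochberg adjusted p = 0.742, edgeR quasi-likelihood), and Cnn1 and Synm had log2 fold changes of -0.68 and -0.63. Of all genes tested, 0.864% were past this threshold as lower. Des did not pass without Tmem173fl/fl replicates 1 or 3 (-0.96 and -0.94) or without Tmem173iΔmye replicates 1 or 2 (-0.84 and -0.71), and it was -1.65 without Tmem173iΔmye replicate 3. For comparison, the 10 members summed to 60.2 to 78.3 CPM in the Tmem173fl/fl and 70.6 to 83.1 CPM in the Tmem173iΔmye tumors, most of it from Pparg and Lpl.

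Cell types in which the detected members are also known were all present. All 9 endothelial genes, all 9 macrophage genes and all 10 colon epithelial genes passed the filter, with 0 calls by either rule and median log2 fold changes of 0.25, 0.19 and 0.13. In Tmem173fl/fl and Tmem173iΔmye tumors, macrophage genes summed to 274 to 359 and 298 to 452 CPM and endothelial genes to 119 to 144 and 127 to 172 CPM. Pecam1, an endothelial adhesion protein, and Vil1, a protein of the epithelial brush border, were the 2 genes of these lists that were higher in every Tmem173iΔmye tumor, with log2 fold changes of 0.37 (SE 0.16) and 0.35 (SE 0.15). Of all genes tested, 6.14% were higher in this way. The macrophage genes with the lowest p-values, C1qa, Fcgr1 and C1qb, had log2 fold changes of 0.46, 0.41 and 0.33. Those of the endothelial genes Cdh5 and Kdr were 0.25 and 0.28, and that of Epcam was 0.24. Slc26a3 had one of -1.40, which ranged from -1.96 to -0.50 when leaving out 1 tumor. Which cells carried Pparg, Lpl, Fabp4 or Cidec was not tested.

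Adipose stromal and progenitor genes included the largest fold change of all listed genes tested. Of 9 listed, 6 were tested, with 0 called at an adjusted p under 0.05, 1 past the study's threshold as lower and a median log2 fold change of -0.055. Dlk1, a surface protein of preadipocytes and of endocrine cells that holds back fat cell differentiation, had 1.31, 0.874 and 2.30 FPKM in the Tmem173fl/fl and 0.0668, 0.188 and 0.0336 FPKM in the Tmem173iΔmye tumors, without overlap. The counts were 116, 74 and 218 in the Tmem173fl/fl and 6, 17 and 3 in the Tmem173iΔmye tumors. Dlk1 thus passed the filter through the Tmem173fl/fl tumors alone, and Tmem173iΔmye replicate 3 lay at the limit of 3 counts. Its log2 fold change was -3.94 (SE 0.64, Benjamini-Hochberg adjusted p = 0.742, edgeR quasi-likelihood). The size depended on the scale, being -1.15 with limma on log2(FPKM + 1). With limma on log2(FPKM + 0.1) it lay between -3.94 and -1.15. The Benjamini-Hochberg adjusted p was 0.0261 by edgeR when every gene with a count was tested, and DESeq2 gave 1.02e-06. Leaving out 1 tumor gave log2 fold changes from -4.86 (without Tmem173iΔmye replicate 2) to -3.49 (without Tmem173fl/fl replicate 3). Ebf2, a transcription factor of committed fat precursors, had 4 counts in all. Dpp4, a surface enzyme of early fat progenitors that colonocytes also carry, was lower in every Tmem173iΔmye tumor, by a log2 fold change of -0.54 (SE 0.20), and Cd34 had one of 0.50 (SE 0.23). Of all genes tested, 6.31% were lower in every Tmem173iΔmye tumor and 0.864% were past the study's threshold as lower.

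The partners of lipoprotein lipase were next compared with Lpl itself. Of 8 listed, 4 were tested: Gpihbp1, which anchors the enzyme to capillaries, Lmf1, which folds it, and Angptl4 and Angptl8, which restrain it. None was called at an adjusted p under 0.05 or at the study's threshold, and their median log2 fold change was 0.19. Angptl4 had FPKM values of 1.17, 1.36 and 0.744 in the Tmem173fl/fl and 2.43, 1.96 and 1.62 in the Tmem173iΔmye tumors. Every one of the latter was higher, as was the case for 6.14% of all genes tested. The log2 fold change of Angptl4 was 0.87 (SE 0.32, Benjamini-Hochberg adjusted p = 0.742, edgeR quasi-likelihood), while those of Gpihbp1, Lmf1 and Angptl8 were 0.13, -0.06 and 0.24. The apolipoproteins that regulate the enzyme, Apoc2, Apoc3 and Apoa5, stayed under the filter.

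The receptors for the undetected hormones were present. Adipor1 and Adipor2, the adiponectin receptors, had means of 41.6 and 26.0 FPKM over the 6 tumors, and Lepr, the leptin receptor, 1.26 FPKM. All 7 receptors and partners were tested, with 0 calls by either rule, 0 without overlap and a median log2 fold change of 0.26. Complement C3, which acts with adipsin in the alternative pathway, had FPKM values of 16.2, 13.1 and 12.1 in the Tmem173fl/fl and 28.3, 25.5 and 12.3 in the Tmem173iΔmye tumors (log2 fold change 0.67, SE 0.30). Cdh13, which binds adiponectin, and Lepr had log2 fold changes of 0.27 and 0.26.

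Partners and target genes of PPAR-γ were all expressed. Of 11 tested, 0 were called by either rule, and the median log2 fold change was 0.15. In 4 of them (Rxrb, Nr1h3, Angptl4 and Plin2) every Tmem173iΔmye tumor was above every Tmem173fl/fl tumor, which was the case for 6.14% of all genes tested, and in 0 was it below. The 4 include genes that respond to other nuclear receptors or to lipid load as well. Nr1h3, the oxysterol receptor LXRα, had FPKM values of 3.84, 4.25 and 4.20 in the Tmem173fl/fl and 5.33, 4.80 and 4.58 in the Tmem173iΔmye tumors. Its log2 fold change was 0.26 (SE 0.18, Benjamini-Hochberg adjusted p = 0.757, edgeR quasi-likelihood). Plin2, the perilipin of droplets in most cell types, had FPKM values of 34.5, 22.7 and 24.4 against 35.2, 38.2 and 34.8, and its log2 fold change was 0.40 (SE 0.18, Benjamini-Hochberg adjusted p = 0.742, edgeR quasi-likelihood). Cebpa, the partner of PPAR-γ in adipocytes, was at 19.7 to 27.2 FPKM with a log2 fold change of 0.13, so it was detected beside Pparg in tumors where Adipoq, Lep and Plin1 were not.

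**Figure D4:**
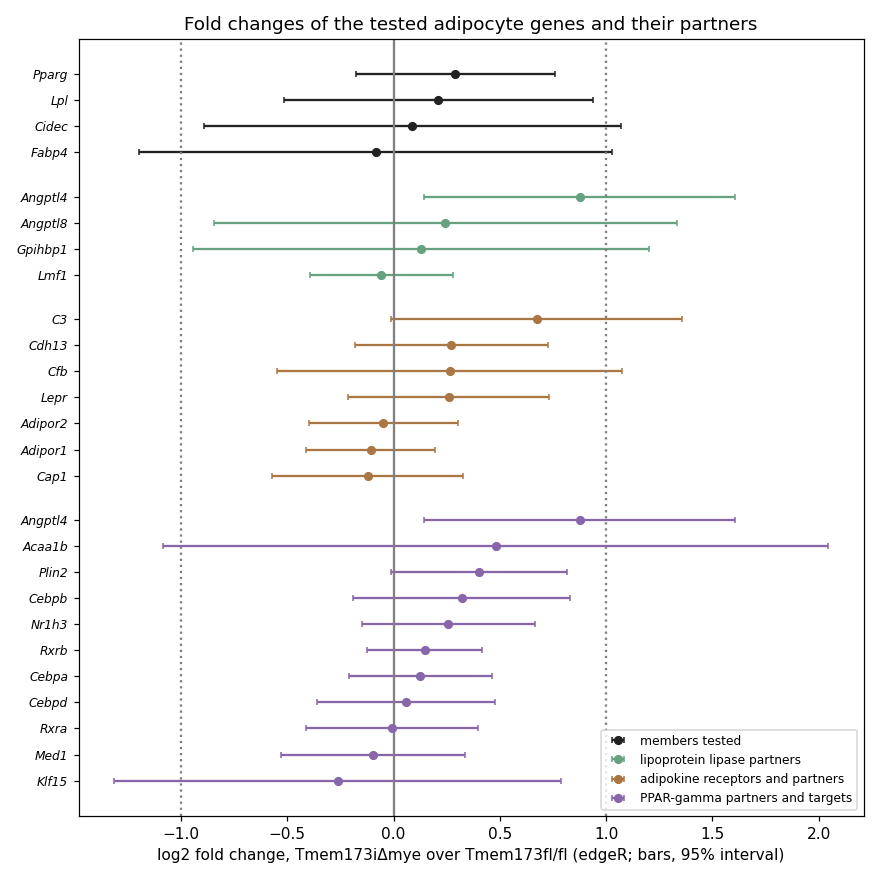
Log2 fold change of Tmem173iΔmye over Tmem173fl/fl tumors (x axis) for the 4 tested adipocyte genes and the tested genes of 3 related lists, 1 gene per line (n = 3 per group). Points are edgeR estimates, bars their 95% intervals and dotted lines -1 and 1. The bars of all 4 members (black) cross 0, with Pparg at 0.29 and Fabp4 at -0.08, while those of Angptl4 (drawn in both lists that hold it) do not.

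Close relatives of the members ranged from undetected to levels above those of most members. Of 17 paralogs, 13 passed the filter, with 0 calls by either rule and a median log2 fold change of 0.06. Plin2 and Plin3, the broadly expressed perilipins, had means of 31.7 and 26.5 FPKM over the 6 tumors and Plin5 1.16 FPKM, where Plin1 was at 0. Cideb, known in liver and intestine, was at 4.65 FPKM and Cidea at 0.671 FPKM, beside 1.05 FPKM for Cidec. Fabp5, known in skin and macrophages, and Fabp2, the intestinal form, were at 4.83 and 4.42 FPKM, Fabp6 was at 1.55 FPKM, and Fabp1, the liver form, had 0 counts. Among the relatives of resistin, Retnlb, known from goblet cells, ranged from 0.960 to 38.1 FPKM and Retnlg, known from myeloid cells, from 2.74 to 31.4 FPKM, both highest in Tmem173iΔmye replicate 1, while Retnla had 0 counts. The lipases Lipg and Lipc were at 3.65 and 0.928 FPKM. Ppard was at 13.9 FPKM, close to the 14.1 FPKM of Pparg, and Ppara did not exceed 0.358 FPKM. A read that fits several paralogs equally could be lost or misplaced in counting. Of the 50-base stretches of Pparg, Fabp4 and Cidec, 0 occurred exactly in annotated transcripts of other genes, and of those of Lpl 145 of 10329 (1.40%). Inexact matches and unannotated sequence were not searched, so the loss of reads itself was not tested.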

How the data were processed

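The authors isolated polyA RNA with TRIzol, prepared libraries with a NEBNext Ultra kit, and, per the submitters' processing notes, used CASAVA 1.8, fastp, HISAT2 2.0.5, featureCounts 1.5.0-p3 and DESeq2 1.20.0 with GRCm38 (mm10). The table they deposited gives, for each of 54532 genes, the raw counts and the FPKM of every tumor. The deposited FPKM equal the counts divided by gene length, median-of-ratios size factors and the geometric mean of the totals (largest relative difference 4.96e-07). The authors' comparison columns (DESeq2 group means, fold changes and p-values) were not used.

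The quasi-likelihood test of edgeR 4.0.16, run in R 4.3.3, was applied to the counts of 16426 genes whose mean FPKM reached 0.5, after TMM normalization and with no term but the group. Benjamini-Hochberg adjustment covered all of them. CPM use TMM library sizes. SE is the absolute log2 fold change over the square root of F, and 95% intervals use the test's degrees of freedom. All fold changes are Tmem173iΔmye over Tmem173fl/fl. Nothing in the labels says that replicates came from separate cages or litters, and p-values set the group difference against the spread of these samples within groups. The script was tested on simulated counts.

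The members and all 14 lists were chosen with earlier results of these data known. A gene of the lists is not reported here and was left out of their counts. Genes named are the 10 members, up to 3 genes of each other list with the lowest p-values and paralogs with a mean FPKM of at least 0.5, which are given by level. The values of further genes (Tshr, Adrb3, Aqp7, Ces1d, Car3, Pck1, Ucp1, Elovl3, Zic1, Ebf2, Wt1, Upk1b, Fasn, Pnpla2, Lipe, Cebpa, Gpihbp1, Tek, Cdh1, Aqp8, Krt20, Dio2, Cidea, Adig, Lgals12, Adipor1, Adipor2, Ppara, Fabp1, Retnla, the untested apolipoproteins and the genes without overlap) were chosen after their values were seen. A planned list of genes most like Adipoq was not made, because Adipoq was 0 in every tumor. Alternatives were median-of-ratios scaling, no filter, a minimum mean FPKM of 1, DESeq2 1.42.0, limma 3.58.1 on log2(FPKM + 1) and log2(FPKM + 0.1), the replicate number as a block, Y-linked reads as a covariate and leaving out each tumor. Exon overlaps and 50-base stretches were read from GENCODE M21 with Python 3.11.15.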

Additional observations from a re-analysis of the deposited data

How the results depend on the processing

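No member was called by either rule under any alternative run. The sign of 3 members' log2 fold changes depended on the setting or on single tumors. Fabp4, -0.08 in the main fit, was 0.019 with limma on log2(FPKM + 1), 0.13 on log2(FPKM + 0.1) and 0.12 with the replicate block, and -0.48 to 0.47 when leaving out 1 tumor. Cidec was -0.14 with Y-linked reads as a covariate and -0.17 to 0.32 when leaving out 1 tumor, and Lpl ranged from -0.061 to 0.56. Pparg stayed above 0 throughout, from 0.14 without Tmem173fl/fl replicate 2 to 0.50 without replicate 1. The members' median was -0.019 to 0.26 when leaving out 1 tumor, lowest without Tmem173fl/fl replicate 2. Angptl8 (-0.11 to 0.50) and Lmf1 (-0.10 to 0.029) reversed without that tumor.

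Of the genes on all lists, 0 were called at an adjusted p under 0.05 and 2 (Dlk1 and Des) past the study's threshold. Without the filter these were 1 (Dlk1) and 5, and of all genes 6 and 872 against 0 and 349. A minimum mean FPKM of 1 put 1 listed gene past the threshold. DESeq2 called 1 listed gene (Dlk1) and 28 of all genes. Limma on log2(FPKM + 1) put 136 of all genes past the threshold, and Y-linked reads as a covariate 211, of them 1 on the lists. With the replicate block, 4 listed genes were past it. Leaving out 1 tumor gave 2 to 9 listed genes (9 without Tmem173fl/fl replicate 1 and without Tmem173iΔmye replicate 3), 218 to 636 of all genes, and 0 to 1 of all genes at an adjusted p under 0.05. The causes were not tested.

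Tumors of the same number deviated from their group means with correlations of 0.315, 0.00846 and 0.154 across genes for replicates 1, 2 and 3, so the numbers were not taken as pairing the samples. For the undetected members the limit set was 3 counts per tumor, or 0.181 to 0.196 CPM, which is a limit on reads and not on fat cells.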

Other observations

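Among the adipocyte genes under the filter, Thrsp, which encodes a regulator of fatty acid synthesis also found in liver, stood apart after its values were seen. Its counts were 8, 8 and 5 among Tmem173fl/fl and 20, 23 and 21 among Tmem173iΔmye tumors, without overlap. Fitted without the filter, its log2 fold change was 1.58 (SE 0.53, Benjamini-Hochberg adjusted p = 0.651, edgeR quasi-likelihood). Among the genes that passed the filter, 6.14% were higher in every Tmem173iΔmye tumor.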
